A study of Mus musculus with 15 samples.

Results

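The genes described are 35 genes of fatty acid oxidation, ketone body metabolism and the response to the nuclear receptor PPAR-alpha, chosen by name from 37991 gene identifiers in a raw count table of mouse liver RNA. All 35 were matched by symbol and all 35 passed the filter on low counts, in a table of which 14258 genes were tested. By role they were the receptor gene Ppara, 3 genes of fatty acid uptake, binding and activation, 5 of the carnitine system, 9 of mitochondrial beta-oxidation, 3 of electron transfer, 5 of the peroxisome, 4 acyl-CoA thioesterases, the ketone body gene Bdh1 and 4 further PPAR-alpha targets.

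Whole liver was taken from female C57BL/6 mice on a chow diet with free access to food. Young WT mice were wild type at 90 days, old WT mice were wild type at 600 days, and old KO mice, also 600 days of age, lacked S6K1 (ribosomal S6 kinase 1, gene Rps6kb1) in the whole body. Each group held 5 libraries, and there was no young KO group, so genotype was compared at 600 days only. In the lists of values below, libraries stand in the order of the labels' replicate numbers, which are 1, 2, 3, 4 and 6 for young WT, 1, 4, 5, 7 and 10 for old WT and 1, 2, 4, 5 and 6 for old KO. The numbers carry no order of their own.

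In liver, long-chain fatty acids are bound, activated to acyl-CoA, passed into mitochondria as carnitine esters and shortened in a cycle of dehydrogenation, hydration, oxidation and thiolysis, while peroxisomes shorten very long chains. The acetyl-CoA formed can be turned into ketone bodies, which other tissues burn during fasting. PPAR-alpha is activated by fatty acids and raises transcription of many of these genes, most strongly when food is scarce.

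Total counts per library ranged from 21801754 to 38065359. Rps6kb1 itself was measured at 15.2 to 20.8 CPM (counts scaled to a library size of 1000000) in old KO libraries and at 33.3 to 45.4 CPM in WT libraries, with no overlap (log2 fold change -1.17 for old KO against old WT, edgeR adjusted p = 8.54e-06). All 10 hepatocyte marker genes were present in every group, with summed levels of 87600 to 138000 CPM in young WT, between 97500 and 146000 in old WT and between 116000 and 152000 in old KO. Of 8 adipocyte and mesothelial markers, 6 stayed under 1 CPM in all libraries and their sum reached at most 6.92 CPM, and of 8 muscle markers Myh6 was at 0 counts throughout. The muscle markers summed to at most 1.17 CPM in WT libraries and reached 22.6 CPM in old KO 6 (Acta1 10.2 CPM, Tnnt3 5.15 CPM), and the 1 that could be tested, Mylpf, was called higher in old KO against young WT (1.19, adjusted p = 0.0383). Old KO 6 was also the highest of its group for 27 of the 35 genes described below, and the part of this material was not tested. In bulk liver, fewer cells of a type and less RNA per cell cannot be told apart.

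Binding sites of PPAR-alpha with its partner RXR are commonly a direct repeat of AGGTCA spaced by 1 base, AGGTCANAGGTCA, and the proximal promoters of the genes were searched for it because the gene set is named after this receptor. RefSeq promoter windows of 250 bases before and 50 after the annotated start (GRCm38.p6) were at hand for 30 of the 35 genes, and not for Vnn1, Acaa2, Angptl4, Crat and Decr1. Both strands were read, and at most 2 mismatches over the 12 letters were accepted. Such a match was present for 4 of 30 genes (13.3%) and for 1190 of all 27025 genes with a window (4.4%). With up to 3 mismatches there were 11 of 30 genes (36.7%), Acot3 among them, and 27.3% of all genes with a window. The 4 matches are shown with 8 bases on either side, the 13-base repeat in capitals, together with the closest stretch of Acot3, which has 3 mismatches and is shown for comparison with its neighbour Acot4. Each is written 5′ to 3′ on the strand that carries the repeat.
Fabp1: tcagatatAGGCCATAGGTCAgtgattgt
Acot4: gcacagacCGGCCAAAGGTCAtgcttcgg
Etfa: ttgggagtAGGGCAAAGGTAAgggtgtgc
Slc25a20: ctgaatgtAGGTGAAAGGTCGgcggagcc
Acot3: agctaataACGGCAGAAGTCAgagatgga
In GRCm38.p6 these runs lie at chr6:71199804-71199832 (minus strand) for Fabp1, chr12:84038358-84038386 (minus) for Acot4, chr9:55512300-55512328 (plus) for Etfa, chr9:108662134-108662162 (plus) for Slc25a20 and chr12:84052131-84052159 (minus) for Acot3. The Fabp1 repeat, with 1 mismatch, occupied bases -67 to -55 from the start, where -1 is the last base before it, and that of Etfa bases -77 to -65. That of Acot4 lay at -13 to -1, the Acot3 stretch at -12 to 1 or -5 to 8 depending on which of its annotated starts is used, and that of Slc25a20 at 7 to 19 within the transcript. None of the genes that changed with age (described next) held a match in the window under this rule, which says only that these letters are not in this window.

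Age was compared first, old WT against young WT. Cpt1a, Ehhadh and Acaa1a fell and Acot3 rose, and the other 31 genes did not pass the test. So 4 of 35 genes were called at an adjusted p under 0.05, where 18.8% of all genes tested were called. Called lower were 3 of 35, against 8.91% of all genes, and called higher 1 of 35, against 9.92%. The median log2 fold change of the 35 genes was -0.13 and that of all genes tested 0.01, and 23 of 35 (65.7%) were lower in old WT, against 48.8% of all genes. The CPM of old and young WT libraries formed separate ranges for 3 of 35 (Cpt1a, Acaa1a and Acsl1), where 11.4% of all genes did so. At an unadjusted p under 0.05 there were 7 of 35 (20%), against 33% of all genes, a smaller share than among all genes.

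Genotype was compared at 600 days, old KO against old WT. None of the 35 genes was called by edgeR, DESeq2 or limma voom, where edgeR called 0.533% of all genes tested. At an unadjusted p under 0.05 there were 2 of 35 genes (5.71%), Cpt1a and Ppara, against 11.6% of all genes, a smaller share than among all genes. None of the 35 had CPM ranges that did not overlap, against 3.2% of all genes. The sign was nevertheless shared by nearly all of them: 32 of 35 (91.4%) had a lower fitted mean in old KO, against 49.8% of all genes, with a median log2 fold change of -0.22 against 0.00. The 3 exceptions were Etfa (0.08), Etfb (0.08) and Angptl4 (0.10 on the log2 scale). The genes are not independent of each other, since they moved together from library to library, as described below. Leaving out old WT 10, the highest library of its group, brought the median to -0.08 with 27 of 35 genes lower, and leaving out old KO 1 brought it to -0.10 with 26 lower.

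Old KO against young WT differs in age and genotype at the same time and shares its libraries with the other contrasts. In it 7 of 35 genes were called, all of them lower (Slc27a2, Acsl1, Cpt1a, Acadvl, Ehhadh, Acaa1a and Acot2), where 23.3% of all genes were called and 11.3% were called lower. The median log2 fold change was -0.36 against -0.01 for all genes, and 29 of 35 were lower. Ranges did not overlap for 6 of 35, against 13.9% of all genes.

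**Figure D1:**
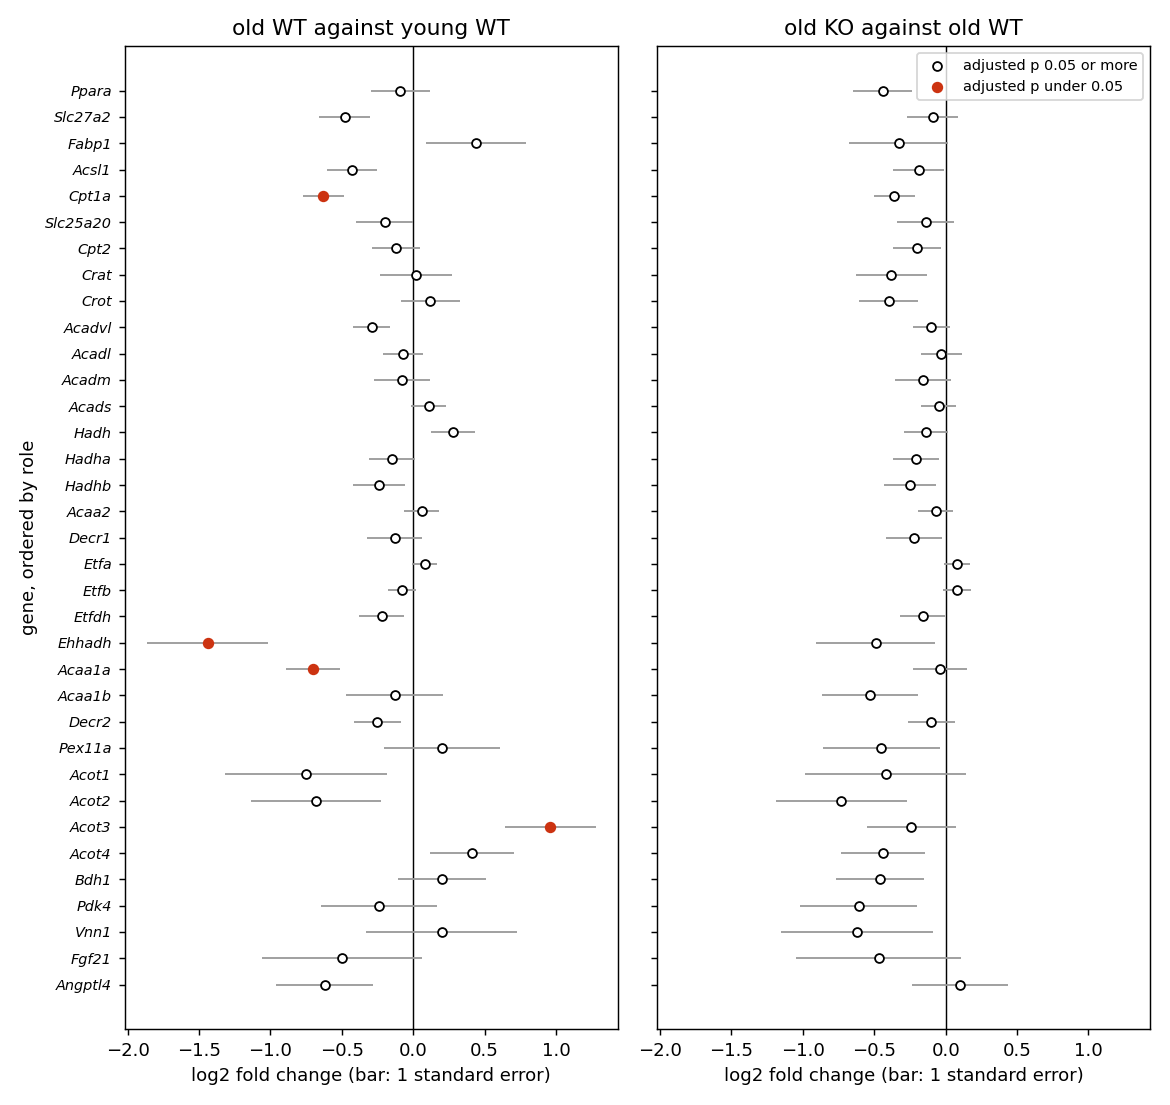
Fitted log2 fold changes of the 35 genes, ordered by role from top to bottom, for old WT against young WT (left) and old KO against old WT (right). The horizontal axis is the log2 fold change, points are the fitted values, bars are 1 standard error, and filled points have an edgeR adjusted p under 0.05. On the left 4 genes are filled (Cpt1a, Ehhadh, Acaa1a, Acot3), and on the right no point is filled and 32 of 35 points lie below 0.

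Ppara encodes the receptor (chr15:85565413-85633249, plus strand, NCBIM37, the build of the counts). It was measured at 125, 126, 136, 151 and 191 CPM in young WT, at 182, 161, 129, 75 and 138 CPM in old WT and at 74, 110, 120, 78.1 and 123 CPM in old KO libraries. The highest old KO library lay just below the lowest young WT library, while old KO and old WT libraries spanned largely the same levels and each held a library near 75 CPM. The means were 146 ± 27.6, 137 ± 40.2 and 101 ± 23.2 CPM (SD, n = 5 each). Neither the log2 fold change with age (-0.09, SE 0.206, adjusted p = 0.794) nor that with genotype (-0.44, SE 0.206, adjusted p = 0.425) passed the test. The value for age changed sign, to 0.03, without young WT 6 and to 0.07 without old WT 7.

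Fatty acid uptake, binding and activation were represented by Slc27a2, Acsl1 and Fabp1. Slc27a2, a very long-chain acyl-CoA synthetase and transporter (chr2:126378143-126413979, plus), was at 2230, 2500, 2330, 2460 and 2990 CPM in young WT, 1670, 1690, 2010, 1280 and 2320 in old WT and 1040, 1740, 2020, 1570 and 2070 in old KO. Only old WT 10 among the old libraries reached into the young range. Its log2 fold change was -0.48 with age (SE 0.18, adjusted p = 0.0714) and -0.57 for old KO against young WT (SE 0.18, adjusted p = 0.0314). That last call was lost without any of young WT 2, 4 or 6 or old KO 1, 2 or 5 (adjusted p from 0.0509 to 0.0706).

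Acsl1, which activates long-chain fatty acids to acyl-CoA (chr8:47556395-47621405, plus), was at 2080, 1960, 1960, 2250 and 2140 CPM in young WT, 1670, 1340, 1610, 1170 and 1920 in old WT and 847, 1680, 1470, 1060 and 1690 in old KO. All 10 old libraries lay below all 5 young ones. The fitted log2 fold change with age was -0.43 (SE 0.176, adjusted p = 0.097), which did not pass, and that of old KO against young WT was -0.62 (SE 0.176, adjusted p = 0.019), which did not pass without old KO 5 (adjusted p = 0.0533). Fabp1, the abundant liver fatty acid binding protein, varied more within groups than between them, at 2140 to 4820 CPM in young WT, between 1400 and 6300 in old WT and between 1790 and 4550 in old KO.

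The carnitine system held the gene with the lowest adjusted p of the 35. Cpt1a, the outer-membrane carnitine palmitoyltransferase that sets the pace of mitochondrial fatty acid entry (chr19:3323301-3385732, plus), was at 868, 927, 987, 1060 and 1060 CPM in young WT, 665, 595, 618, 577 and 716 in old WT and 316, 605, 578, 433 and 539 in old KO. Young and old WT did not overlap, and 3 of 5 old KO libraries lay under the lowest old WT library. With age it fell to 0.647 of the young level (log2 fold change -0.63, SE 0.144, adjusted p = 0.00749), and this call held without any 1 of the 15 libraries. Old KO against old WT gave -0.36 (SE 0.143, adjusted p = 0.323), and old KO against young WT gave -0.99 (SE 0.144, adjusted p = 0.000347), which also held without any 1 library.

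The other carnitine genes did not pass in any contrast. They were Slc25a20, the carnitine-acylcarnitine carrier, Cpt2, the inner-membrane transferase, and Crat and Crot, which make short-chain and medium-chain acylcarnitines. Their log2 fold changes with age lay between -0.20 (Slc25a20) and 0.12 (Crot) and with genotype between -0.14 (Slc25a20) and -0.40 (Crot). Cpt2, for example, averaged 271 ± 28.6 CPM in young WT, 249 ± 55.5 in old WT and 217 ± 53 in old KO (SD, n = 5 each). Crat spanned a 3.23-fold range within old KO (77.3 to 250 CPM) and a 1.25-fold range within young WT (195 to 245 CPM).

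**Figure D2:**
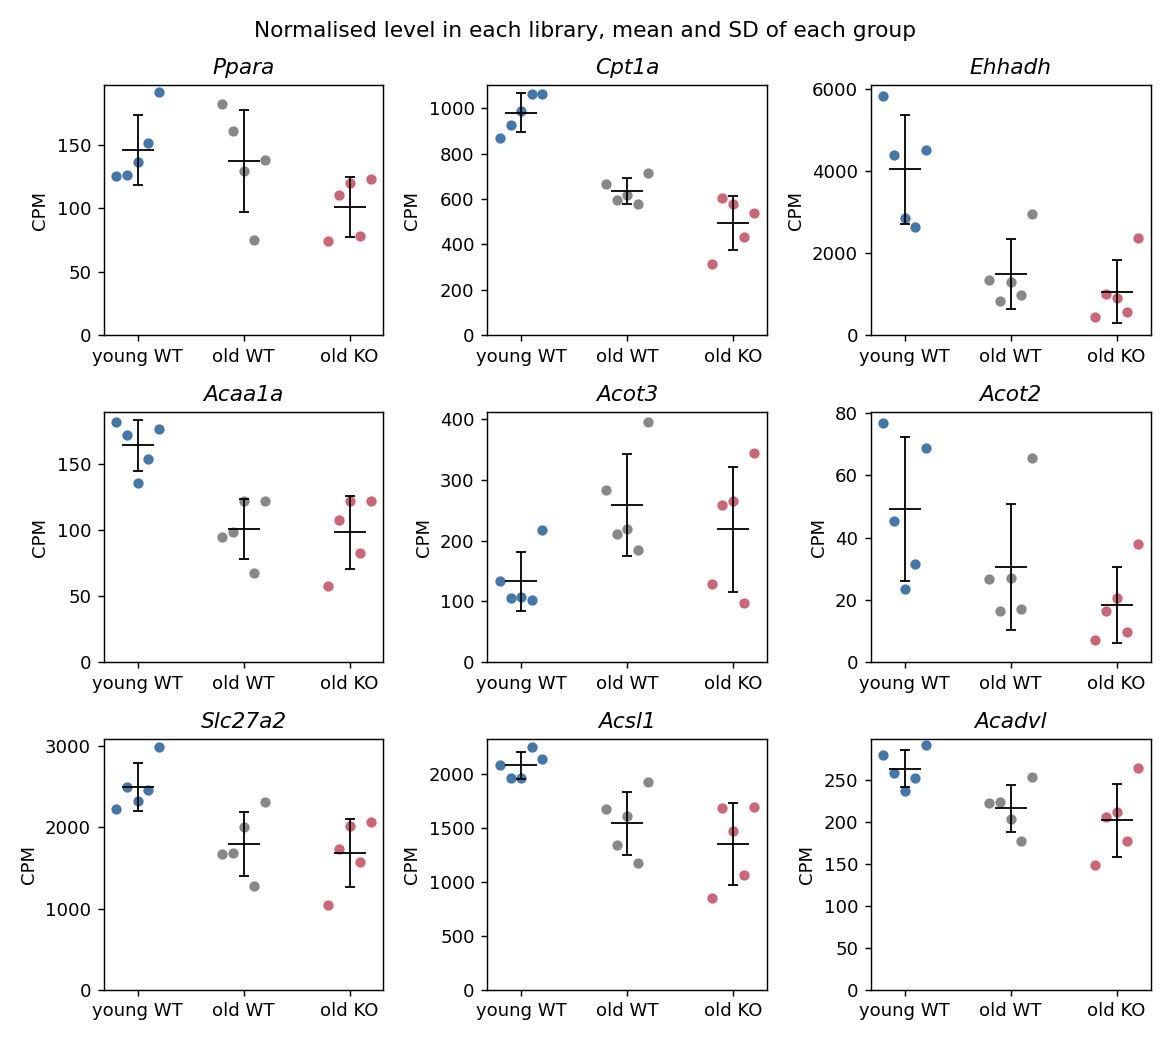
CPM of 9 genes (Ppara and the 8 genes called in any contrast) in every library, with the group mean and SD in black and the groups young WT, old WT and old KO from left to right; each vertical axis starts at 0. Cpt1a and Acaa1a show no overlap between young and old WT libraries, while Ehhadh and Acot3 each have old and young libraries at the same level.

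Mitochondrial beta-oxidation itself showed small differences. Of its 9 genes none was called with age or with genotype. The log2 fold changes lay between -0.29 (Acadvl) and 0.28 (Hadh) with age and between -0.25 (Hadhb) and -0.03 (Acadl) with genotype, and all 9 were lower in old KO than in old WT. The standard errors of these values lay between 0.123 and 0.196, so differences of this size were not resolved.

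Acadvl, the very long-chain acyl-CoA dehydrogenase (chr11:69823685-69828913, minus), was at 279.0, 257.5, 235.8, 252.1 and 290.8 CPM in young WT, 222.1, 223.9, 203.1, 176.6 and 253.4 in old WT and 148.7, 204.5, 212.3, 177.2 and 263.8 in old KO. The groups overlapped, and the highest old KO library lay inside the young range. Old KO against young WT gave -0.39 (SE 0.132, adjusted p = 0.0438). The call was lost without old KO 1 (adjusted p = 0.1), without old KO 5 (0.105) and without young WT 1, 2, 4 or 6, old WT 1 or 4, or old KO 2 or 4 (0.0506 to 0.0894). Annotated transcripts of Acadvl and its neighbour Dvl2 overlap, and 23.5% of the 50-base stretches of Acadvl transcripts also occur in those of other genes, so its count is uncertain to that extent.

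The chain-length series ran from Acadl, the long-chain dehydrogenase, at 387 ± 57.6, 369 ± 63.8 and 362 ± 65.6 CPM in young WT, old WT and old KO (SD, n = 5 each), over Acadm, the medium-chain enzyme, at 734 ± 94.4, 694 ± 161 and 620 ± 186 CPM, to Acads, the short-chain enzyme, at 135 ± 11.3, 146 ± 23.3 and 141 ± 20.1 CPM. None of the 3 differed between groups beyond the spread between mice. Hadh, which oxidises short-chain hydroxyacyl-CoA, was the gene of this group with the largest fitted difference upward with age (0.28 on the log2 scale, SE 0.154, adjusted p = 0.216). Acaa2, the mitochondrial thiolase, was at 738 ± 54.7, 771 ± 78.8 and 733 ± 136 CPM. Decr1, which removes double bonds of unsaturated fatty acids, was at 384 ± 68.7, 350 ± 88.8 and 300 ± 77.1 CPM.

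Hadha and Hadhb encode both subunits of the trifunctional protein, which carries out the last steps on long chains. They are transcribed in opposite directions from starts that the GENCODE M1 annotation places 85 bases apart on chromosome 5 (Hadha at chr5:30444841-30481702, minus, and Hadhb at chr5:30481788-30511133, plus, NCBIM37). The RefSeq starts behind the promoter windows lie further apart, so this distance depends on the annotation. The bases between the GENCODE M1 starts, shown because both genes share them as upstream sequence, are 69.4% G or C and lie at chr5:30481703-30481787, written on the plus strand with no base marked.
Hadha to Hadhb: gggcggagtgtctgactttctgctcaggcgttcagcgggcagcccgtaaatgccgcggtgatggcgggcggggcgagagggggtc
The CPM of Hadha divided by that of Hadhb stayed between 2.01 and 2.55 across the 15 libraries, while Hadhb itself ranged from 121 to 311 CPM. The ratio averaged 2.05 ± 0.0337 in young WT, 2.18 ± 0.11 in old WT and 2.27 ± 0.179 in old KO (SD, n = 5 each), and old KO 1 had the highest value. A ratio of CPM depends on gene length and is compared here only between libraries.

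The electron transfer genes Etfa, Etfb and Etfdh pass electrons from the acyl-CoA dehydrogenases to the respiratory chain. Etfa and Etfb had the smallest spread between mice of all 35 genes (pooled within-group SD 0.129 and 0.154 on the log2 scale) and were fitted at 0.08 in old KO against old WT (SE 0.0888 and 0.0987). Etfdh was at 626 ± 70.8, 537 ± 97.2 and 480 ± 116 CPM in young WT, old WT and old KO (SD, n = 5 each), and no contrast passed the test.

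Peroxisomal genes included the largest decrease with age among the 35. Ehhadh, the bifunctional enzyme of peroxisomal beta-oxidation (chr16:21761360-21787917, minus), was at 5830, 4400, 2850, 2630 and 4520 CPM in young WT, 1350, 849, 1310, 974 and 2960 in old WT and 451, 1010, 921, 562 and 2370 in old KO. In old WT only library 10, and in old KO only library 6, came near the young range, and old WT 10 lay inside it. Its old WT level was 0.368 of the young WT level (-1.44 on the log2 scale, SE 0.424, adjusted p = 0.0269). The call was lost without young WT 1 or 2 or old WT 1, 4, 5 or 7, with adjusted p from 0.0516 to 0.0707 and log2 fold changes from -1.28 to -1.41. Genotype gave -0.49 (SE 0.416, adjusted p = 0.716), and old KO against young WT gave -1.93 (SE 0.43, adjusted p = 0.005), which held without any 1 library.

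Acaa1a, a peroxisomal thiolase (chr9:119250412-119259413, plus), was at 182, 172, 136, 154 and 177 CPM in young WT, 95, 98.5, 122, 67.4 and 122 in old WT and 58.1, 108, 122, 83 and 122 in old KO. No old library reached the lowest young library. The decrease with age was -0.70 on the log2 scale (SE 0.19, adjusted p = 0.0186), that of old KO against young WT -0.74 (SE 0.19, adjusted p = 0.0115), and genotype gave -0.04 (SE 0.189). Both calls held without any 1 library. Acaa1b, the second thiolase gene, lies 184200 bases away and was more abundant per length, at 410, 374 and 260 RPKM (CPM per 1000 bases of exon) in young WT, old WT and old KO against 90, 55.4 and 54 RPKM for Acaa1a. Its log2 fold changes were -0.13 with age and -0.53 with genotype, and neither passed. Of the 50-base stretches of Acaa1a transcripts 33% occur in other genes, mostly in Acaa1b, and of those of Acaa1b 46.2% do, so reads from these stretches cannot be assigned and both counts are uncertain.

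Decr2, the peroxisomal counterpart of Decr1, was lower in old WT by -0.25 (SE 0.164) and in old KO against old WT by -0.10, without passing. Pex11a, which promotes division of peroxisomes, spanned a 1.87-fold range in young WT, 4.17-fold in old WT and 5.46-fold in old KO (84.2 to 459 CPM), and its group means of 271, 312 and 229 CPM did not differ by the test.

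The 4 acyl-CoA thioesterases, which release free fatty acids from acyl-CoA, lie within 71705 bases of chromosome 12 (chr12:85328811-85400515) and did not move alike. Acot3, a peroxisomal form (chr12:85393094-85400515, plus), was at 133, 106, 108, 102 and 217 CPM in young WT, 282, 210, 219, 185 and 395 in old WT and 129, 258, 265, 97.5 and 343 in old KO. Young WT 6 lay above old WT 4 and 7, and the other 4 young libraries lay below every old WT library. It rose with age by 0.96 on the log2 scale (SE 0.317, adjusted p = 0.0454), a call that sat at the threshold and was lost in 10 of the 15 fits that left out a library, namely young WT 1, 2, 3 or 4, old WT 1, 4, 5 or 10, or old KO 2 or 4 (adjusted p from 0.0526 to 0.115). Genotype gave -0.24 (SE 0.314).

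Acot2, a mitochondrial form (chr12:85328811-85334823, plus), was at 76.7, 45.4, 23.6, 31.5 and 68.6 CPM in young WT, 26.8, 16.6, 27.1, 17 and 65.4 in old WT and 7.15, 16.6, 20.6, 9.89 and 38.1 in old KO. The ranges overlapped in every contrast. Old KO against young WT gave -1.42 (SE 0.464, adjusted p = 0.0371), lost without young WT 1, 2 or 6 or old KO 1, 2, 4 or 5 (adjusted p from 0.0553 to 0.0964). Acot1, the cytosolic form, ranged over 14-fold within old KO, from 15.8 CPM in library 1 to 221 in library 6, and its log2 fold changes of -0.75 with age (SE 0.566) and -0.42 with genotype (SE 0.565) did not pass. Acot4, a peroxisomal form, was at 56.4 ± 18.9, 74.7 ± 28.4 and 55.2 ± 23.7 CPM (SD, n = 5 each).

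Within the cluster, the CPM of Acot3 divided by that of Acot1 was 0.754 ± 0.244 in young WT, 2.81 ± 0.945 in old WT and 4.04 ± 2.46 in old KO (SD, n = 5 each). With age Acot3 was fitted higher and Acot1 lower, the latter without passing, so this ratio differs by more than either level by construction. The same ratio for Acot3 over Acot4 was 2.35 ± 0.221, 3.5 ± 0.169 and 3.89 ± 0.65. These pairs were chosen after their values were seen and carry no test. Of the 50-base stretches of their transcripts 47.1% (Acot1), 27.7% (Acot2), 10% (Acot3) and 12.1% (Acot4) occur in another gene, for Acot1 and Acot2 mostly in each other, and their counts are uncertain to that extent.

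Bdh1, which interconverts acetoacetate and beta-hydroxybutyrate, was at 191 to 466 CPM in young WT, between 115 and 385 in old WT and between 149 and 336 in old KO, and no contrast passed. Pdk4, which turns off pyruvate dehydrogenase when fat is burned, averaged 105 ± 52.2, 88.7 ± 23.7 and 57.9 ± 41.1 CPM. Vnn1, a pantetheinase, was at 29.7 CPM in old WT 7 and at 221 to 521 CPM in the other old WT libraries. Fgf21, a hormone released by the fasting liver, was the least abundant of the 35 genes per length (11.7, 8.32 and 6.05 RPKM) and ranged from 0.861 to 15.6 CPM within old KO. Angptl4, an inhibitor of lipoprotein lipase, averaged 237 ± 49.5, 154 ± 37.5 and 165 ± 83 CPM (SD, n = 5 each). The log2 fold changes of these 4 PPAR-alpha targets lay between -0.62 and 0.20 with age and between -0.62 and 0.10 with genotype, and none passed.

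Per length, Fabp1 was the most abundant of the 35 genes in every group (4990, 6770 and 5370 RPKM in young WT, old WT and old KO). Ehhadh followed in young WT at 1340 RPKM and was at 493 and 352 RPKM in old WT and old KO. Slc27a2 stood at 667, 478 and 449 RPKM and Acaa2 at 487, 509 and 484 RPKM, so that in both old groups Acaa2 ranked directly after Fabp1. In old WT the means of Acaa2, Ehhadh and Slc27a2 do not differ beyond the spread of Ehhadh, which was 1490 ± 850 CPM there (SD, n = 5). The lower end was formed by Fgf21, Acot2, Acot4 and Pdk4, at 11.7, 22.4, 22.5 and 29.9 RPKM in young WT.

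The 35 genes moved together from library to library within each old group. For each gene, log2 CPM was set against that gene's mean over the 15 libraries, and the deviations were averaged over the 35 genes. The mean deviation was 0.33, 0.19, 0.01, 0.13 and 0.50 in young WT, 0.14, -0.09, 0.15, -0.53 and 0.54 in old WT and -1.04, -0.09, 0.02, -0.60 and 0.34 in old KO, while the median over all genes tested lay between 0.00 and 0.01 in every library. Old WT and old KO thus each held libraries far apart for the set, and the groups overlapped.

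**Figure D3:**
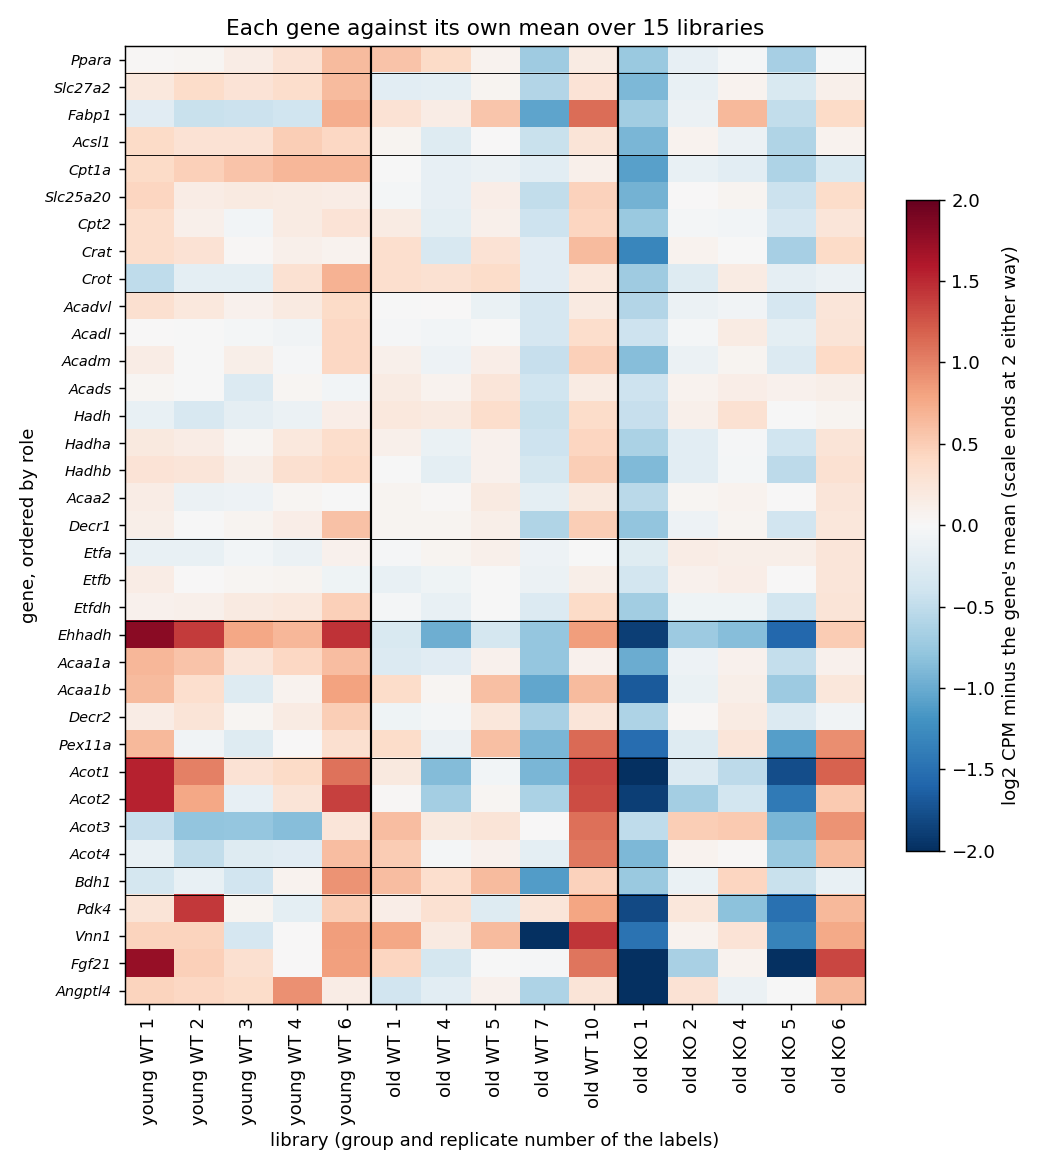
Heat map of 35 genes (rows, by role) in 15 libraries (columns, by group), where colour gives log2 CPM minus the gene's mean over all libraries, with the colour scale ending at 2 in either direction. The column of old KO 1 is blue throughout, old WT 7 and old KO 5 are mostly blue, old WT 10 and young WT 6 are mostly red, and the young WT columns of Ehhadh are red.

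Old KO 1 was the lowest of all 15 libraries for 30 of 35 genes (85.7%), where it was the lowest for 9.17% of all genes tested. In old WT, library 7 was the lowest of its group for 29 of 35 genes and library 10 the highest for 29 of 35. In old KO, library 6 was the highest of its group for 27, and in young WT library 6 was the highest for 20. The 35 genes together took up 0.99% of the counts of old KO 1 and 2.96% of those of young WT 6. By group the share was 2.24 ± 0.447% in young WT, 1.94 ± 0.512% in old WT and 1.55 ± 0.458% in old KO (SD, n = 5 each).

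**Figure D4:**
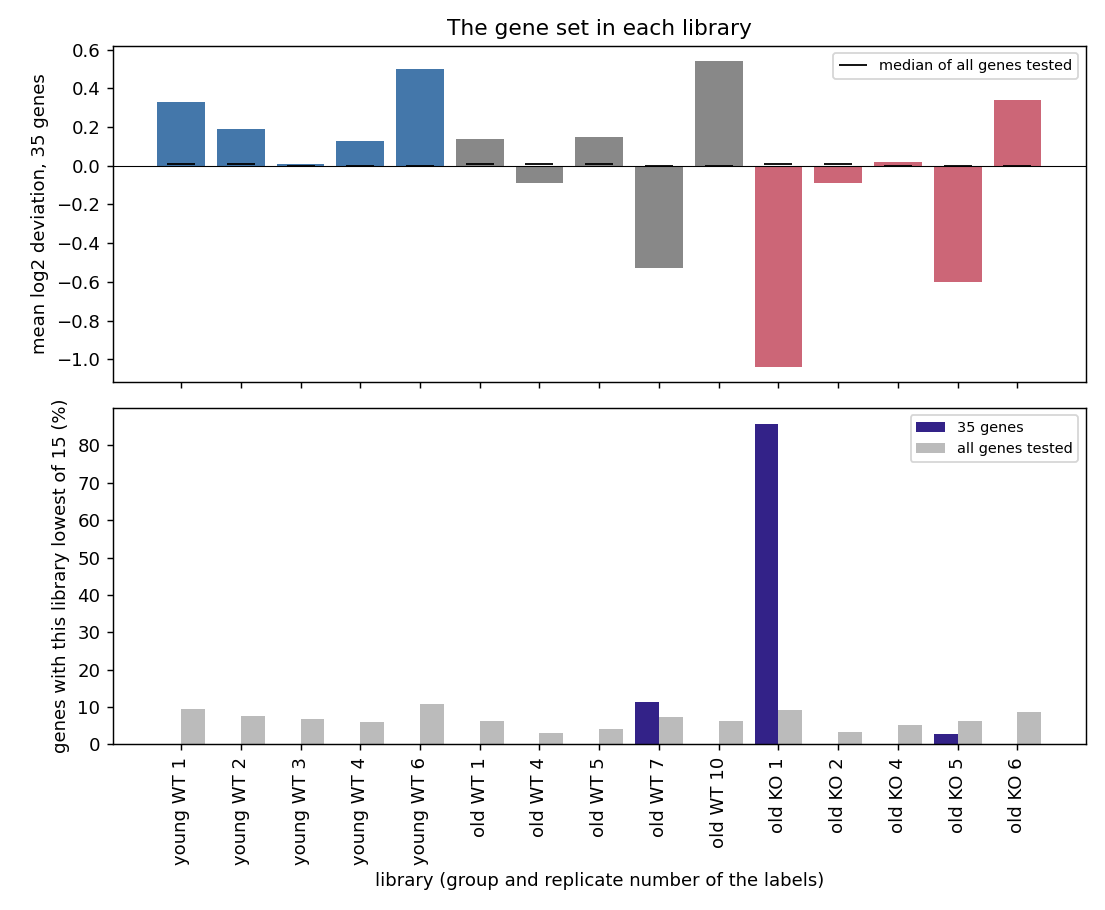
Upper panel, mean deviation of log2 CPM over the 35 genes in each library (bars, coloured by group), with the median over all genes tested as black marks near 0. Lower panel, the percentage of genes for which a library was the lowest of the 15, for the 35 genes (dark) and for all genes tested (grey); old KO 1 stands at 85.7% against 9.17%.

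Other genes stood apart in old KO 1 as well. It was also the lowest of 15 for 20 of 31 tested further PPAR-alpha targets that are not among the 35 (64.5%), and it was the highest of 15 for 8 of 12 genes induced by feeding, such as Fasn (553 CPM, against 121 to 218 in old WT) and Srebf1 (183 CPM, against 34.8 to 125). For all genes tested it was the highest for 8.88%. Of 9 genes induced by fasting it was the lowest for 1 (11.1%), against 9.17% of all genes. Old WT 7, by contrast, was the highest of 15 for 4 of 9 genes induced by fasting, among them Igfbp1 at 461 CPM and Irs2 at 68.3 CPM, where it was the highest for 8.85% of all genes tested. Young WT 3 was the highest for 5 of 9 fasting-induced genes while its mean deviation for the 35 genes was 0.01. Old KO 6 was the lowest for 4 of 12 feeding-induced genes (33.3%), against 8.61% of all genes. Young WT 1 was the highest for 13 of the 31 further targets (41.9%), against 13.1% of all genes. Old KO 5, whose mean deviation was -0.60, was the highest for 1 of 12 feeding-induced genes. It was the lowest for 1 of the 31 further targets and for 1 of the 35 genes. Each gene has only 1 highest and 1 lowest library, and old KO 1 held most of these places. These counts of highest and lowest places therefore cannot tell whether the lists followed the 35 genes in old KO 5. In old KO against old WT all 12 feeding-induced genes had a higher fitted mean and none was called. When food was last eaten before collection is not given in the sources used here, and the part of feeding state in these results was not tested. Leaving out old WT 7 and old KO 1 together was decided after these values were seen. It gave a median of -0.21 with 32 of 35 genes lower in old KO, and again none of the 35 called. That fit kept old KO 5 (mean deviation -0.60) and old WT 10 (0.54). Leaving out old WT 10 alone or old KO 1 alone gave -0.08 and -0.10, so the pair does not show that the median is stable.

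The genes differed in how much they varied between mice of a group. The median pooled within-group SD was 0.35 on the log2 scale over the 35 genes and 0.229 over all genes tested, and 30 of 35 lay above the latter. The wide spread was found in the old groups: the median SD of the 35 genes was 0.177 in young WT, 0.353 in old WT and 0.442 in old KO, where that of all genes tested was 0.228, 0.2 and 0.204. Vnn1 (1.13), Fgf21 (1.09), Acot1 (1.04) and Acot2 (0.823) varied most, followed by Pex11a, Pdk4 and Ehhadh, and Etfa, Etfb and Acaa2 (0.202) varied least.

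**Figure D5:**
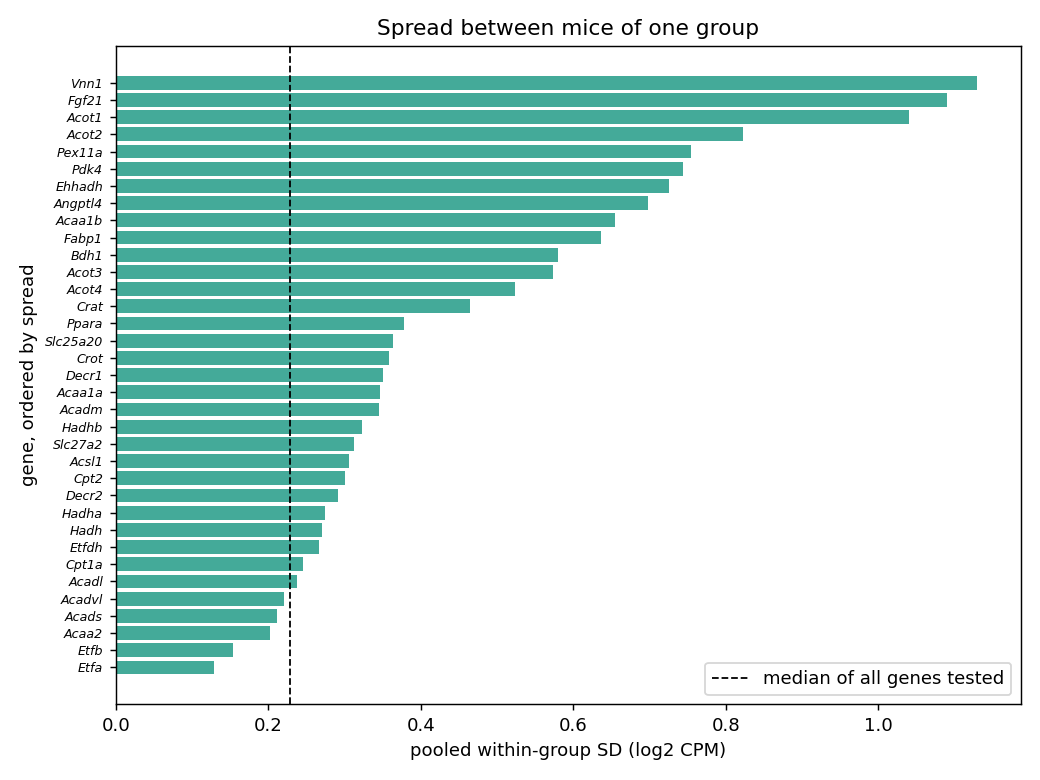
Pooled within-group SD of log2 CPM for each of the 35 genes (bars), ordered from the most variable at the top, with the median over all genes tested (0.229) as a dashed line. Vnn1, Fgf21 and Acot1 exceed 1, and 5 genes (Acadvl, Acads, Acaa2, Etfb and Etfa) lie below the line.

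Beyond the 35 genes, 132 further genes of the same pathways were listed and 123 of them were tested. With age 28 were called, 17 lower and 11 higher, where 18.8% of all genes were called, and with genotype none, where 0.533% were. In old KO against young WT 46 were called (31 lower and 15 higher), where 23.3% of all genes were. Of 31 tested further PPAR-alpha targets 8 fell and 1 rose with age (8.91% and 9.92% of all genes), and their median log2 fold change was -0.33. Of 39 peroxisomal genes 3 fell and 2 rose, of 30 mitochondrial oxidation genes 3 fell and 4 rose, of 17 partners and coregulators of the receptor 3 fell and 2 rose, and of 6 ketone body genes 2 rose. In old KO against young WT the counts were 12 lower and 1 higher of the 31 targets, 11 and 2 of 39, 4 and 8 of 30, 4 and 2 of 17, and 0 and 2 of 6, in the same order.

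Genes of these lists that fell with age included Cidec, a lipid droplet protein (log2 fold change -3.21, adjusted p = 0.0036), and fatty acid omega-hydroxylases of the Cyp4a family, namely Cyp4a31 (-3.00, adjusted p = 0.000189), Cyp4a32 (-1.88), Cyp4a14 (-1.27) and Cyp4a10 (-1.13), close paralogs whose short reads can be hard to assign. Cyp4a14 was at 9160 to 14000 CPM in young WT, between 3520 and 7730 in old WT and between 1470 and 9350 in old KO. Lpin1, a phosphatidate phosphatase, fell by 2.33 and Apoa4, an apolipoprotein, by 1.57 on the log2 scale. Among the increases were Fitm1, which promotes lipid droplet formation (2.73), the enoyl-CoA isomerase gene Eci3 (1.98) and Bdh2, a dehydrogenase related to Bdh1 (1.43, SE 0.132, adjusted p = 1.86e-05), which was at 2.84 to 4.37 CPM in young WT and 8.31 to 10.7 in old WT. In old KO against young WT the 10 largest changes among called genes were those of Cidec (-4.10), Cyp4a31 (-3.91), Eci3 (2.43), Apoa4 (-2.28), Cyp4a32 (-2.18), Fitm1 (2.13), Aacs (acetoacetyl-CoA synthetase, 1.65), Ppard (the receptor PPAR-delta, 1.56), Bdh2 (1.5) and Cyp4a14 (-1.42). For Aacs and Ppard the highest values, 50.2 and 37.1 CPM, were those of old KO 1.

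Other measures also differed between these groups. With age, 5 of 15 circadian clock genes were called (Npas2, Cry1 and Nfil3 higher, Nr1d1 and Ciart lower), 2 of 12 feeding-induced genes were called higher (Scd1 and Pklr) and 2 of 9 fasting-induced genes lower (Ppargc1a, and Lpin1, which is on both lists), where 18.8% of all genes were called. Time of day at collection is not given in the sources used here. Cell type markers called with age were 2 of 10 of hepatocytes (Cps1 -1.27 and Apoa1 -0.69) and 2 of 7 of endothelium on the lower side, and 3 of 7 of B and plasma cells (Jchain 4.07), 2 of 9 of T cells, 2 of 10 of monocytes and macrophages and 1 of 6 of bile duct on the higher side. Of 7 stellate and fibroblast markers 1 was called in each direction. Of 2 tested brown adipocyte markers 1 was called lower, Ppargc1a, which is also on the fasting-induced list above and on that of coregulators of the receptor. In old KO against young WT, where 23.3% of all genes were called, 5 of 6 red blood cell markers were called higher. Also higher were 2 of 10 hepatocyte, 2 of 7 B and plasma cell, 2 of 7 stellate and fibroblast and 1 of 6 bile duct markers. Lower were 2 of 7 endothelial, 4 of 10 monocyte and macrophage, 1 of 10 hepatocyte and 1 of 7 stellate and fibroblast markers. Of 10 monocyte and macrophage markers, 4 were called lower in old KO against old WT, where 0.533% of all genes were called, with summed levels of 177 to 401 CPM in young WT, between 235 and 569 in old WT and between 137 and 215 in old KO. No other marker list had a call in that contrast, and red blood cell markers summed to 79.8 to 164 CPM in old WT and to between 107 and 396 CPM in old KO. The part of these differences in the results above was not tested.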

How the data were processed

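The authors extracted RNA from flash-frozen livers, prepared stranded poly(A) libraries and sequenced single-end 50-base reads. Per the labels, reads were handled with CASAVA and TopHat2 2.0.11 on mm9, and the authors counted them with HTSeq. What was deposited are raw counts per gene and library, without normalization or pooling. The annotation and strand setting of the counting are not given in the sources used here, so overlapping genes are uncertain.

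The members and lists were chosen with earlier results of these data known. Symbols and positions came from GENCODE M1 (NCBIM37). Counts were scaled by TMM, filtered with filterByExpr and fitted with the quasi-likelihood test of edgeR 4.0.16 (R 4.3.3) on all 15 libraries without covariates (common biological coefficient of variation 0.189). P-values were adjusted by Benjamini-Hochberg over 14258 genes, and calls are at an adjusted p under 0.05. SE is the absolute log2 fold change divided by the square root of the F statistic. CPM are counts scaled to a TMM-adjusted library size of 1000000, log2 CPM add a prior count of 2 (the heat map plots log2 CPM without one), and RPKM divide CPM by total exon length. The labels name no batch and number the libraries as replicates, and the study gives 5 mice per group. Genes with an adjusted p under 0.05 in any contrast, with group ranges that do not overlap for age or genotype, and Ppara are given in every library, and from each pathway list contrast the 10 called genes with the largest change are named. DESeq2 1.42.0, limma voom 3.58.1, other scalings, filters, sample sets, a replicate block and leaving out libraries were tried as alternatives.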

Additional observations from a re-analysis of the deposited data

Results flagged for a closer look

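For each gene and group of 5 libraries, the gap between the most extreme library and its nearest neighbour was divided by the range, and 15 of 105 such sets passed Dixon's limit of 0.71, where chance alone flags about 1 set in 20, or 5.25. The sets are not independent, since the genes moved together. In young WT, library 6 stood above the other 4 for Fabp1 (4820 CPM, others up to 2470), Acadl (489, up to 370), Decr1 (504, up to 367), Etfdh (747, up to 619), Acot3 (217, up to 133), Acot4 (89.5, up to 52.4) and Bdh1 (466, up to 262), and library 1 stood above for Slc25a20 (227 CPM, others up to 191).

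In old WT, library 10 stood above the others for Ehhadh (2960 CPM, others up to 1350) and Acot2 (65.4, up to 27.1), and library 7 stood below for Hadh (306, others from 471) and Bdh1 (115, others from 315). In old KO, library 6 stood above for Ehhadh (2370 CPM, others up to 1010), and library 1 stood below for Acads (105, others from 147) and Etfa (299, others from 384).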

How the results depend on the processing

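With genotype, none of the 35 genes was called under any alternative, where 6 to 309 of all genes tested were. With age, 4 genes were called, and 2 to 7 when a library was left out (2 without young WT 1 or 2 or old WT 1, 4 or 5, and 7 without old KO 1). All genes called numbered 2685 in the main fit, 1748 to 1951 in the fits with 2 and 2699 in the fit with 7. In old KO against young WT 7 were called, and 4 to 13 when a library was left out (4 without young WT 2, old KO 2 or old KO 5, and 13 without old KO 6). All genes called there numbered 3319 in the main fit, 2560 to 3056 in the fits with 4 and 3270 in the fit with 13. DESeq2 called 5 and 9 of the 35 in these contrasts, where it called 3249 and 3778 of all genes. The median log2 fold change lay between -0.25 and -0.02 with age, -0.34 and -0.08 with genotype and -0.50 and -0.23 for old KO against young WT when a library was left out. Same-numbered libraries did not deviate together (correlations from -0.153 to 0.077), so the numbers were not taken as pairs. Young WT 3, old WT 7 and old WT 10 share their number with no other library. A replicate block therefore leaves them without weight in the contrasts. With the replicate block, 1 of the 35 genes was called with age (Acot3), where 899 of all genes were. The age median there was 0.01 with 17 of 35 lower, and Ppara changed sign with age, from -0.09 to 0.34. Ehhadh (-1.51), Acaa1a (-0.62) and Cpt1a (-0.49) stayed lower there without passing (adjusted p 0.0866, 0.156 and 0.157). When a library was left out, Ppara lay between -0.21 and 0.07 with age and changed sign without young WT 6 (0.03), without old WT 7 (0.07), and also without old WT 7 and old KO 1 together (0.07). Acadvl was no longer called in old KO against young WT with no filter on low counts, in a fit to the 10 libraries concerned, with the replicate block, and without old WT 7 and old KO 1 together (adjusted p from 0.0513 to 0.0742), and Acot2 was not called in the last of these (0.0714). Total counts were at least 21801754 per library, but Fgf21 had only 23 and 28 counts in old KO 1 and old KO 5. The part of counting error and the cause of these changes were not tested.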
